A study of Mus musculus with 10 samples.

Results

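Col1a1, Col1a2 and Col3a1, the fibrillar collagens, and Col4a1 and Col4a2, the basement membrane collagens, are 5 of the 8251 mouse genes measured on Affymetrix MG_U74Av2 arrays of liver RNA. They were chosen by name, as the genes to which the platform annotation assigns a probe set with a single gene symbol, with earlier results of these data known. They carry 9 of the 10833 single-symbol probe sets, where a probe set is a group of short oligonucleotides for 1 transcript. All 9 were analysed, and no filter on low signals was applied. The probe set that was brightest on average over the 10 arrays stood for its gene, and the other probe sets were fitted beside it.

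TgSREBP-1a and TgSREBP-2 mice overexpressed active nuclear human SREBP-1a or SREBP-2, transcription factors of lipid synthesis. These mice and their wild type male littermates were 12 to 16 weeks old. All 3 groups ate a high protein/low carbohydrate diet, here the high-protein diet, for 2 weeks, which per the labels raises the level of the transgene product. Their control is called the high-protein wild type. Scap knockout mice lacked SCAP, the escort protein that SREBPs need for activation, on a Scap-/-;MX1-Cre background, with injected wild type mice as the chow-fed control. Both of these groups were males of 10 to 12 weeks, ate Teklad chow and received 4 injections of polyinosinic-polycytidylic acid, which switches on MX1-Cre. Livers were taken 14 days after the last injection. The MX1 promoter responds to interferon and is known to act in cells other than hepatocytes too, so Scap loss need not stop at hepatocytes. The labels used here name no promoter for the transgenes. The title gives the study's purpose as finding direct SREBP targets.

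Each group is 1 RNA pool of 5 mice, 20 µg in total, that was read on 2 arrays. The p-values therefore compare pools and hold no error between mice. Duplicate arrays correlated at 0.9921 to 0.9978 over genes. From 55 to 151 genes lay at least 1.5-fold apart between duplicates in the 3 pools on the high-protein diet, against at most 6 in the chow-fed pools. As a check of the labels, Fasn (fatty acid synthase, an SREBP target) differed on the log2 scale by 3.80 ± 0.11 between TgSREBP-1a and its control. For TgSREBP-2 the difference was 2.75 ± 0.11, and for Scap knockout it was -1.61 ± 0.11. The summed signal of 10 hepatocyte markers was 54505 to 63482 over the arrays, as liver should hold. Detection calls were not used here, so no dim signal could be called absent.

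Fibrillar collagens form the load-bearing fibres of connective tissue. Type I collagen is a triple helix of pro-alpha1(I) chains, from Col1a1, and a pro-alpha2(I) chain, from Col1a2, while type III collagen is built from Col3a1 chains alone. Type IV collagen, of Col4a1 and Col4a2 chains, forms the sheet-like network of basement membranes and not fibres. In liver, hepatic stellate cells and portal fibroblasts are the main makers of fibrillar collagen, and their activation in injury deposits scar. Endothelial cells and stellate cells make type IV collagen. In whole-liver RNA, a larger number of such cells and more collagen RNA per cell cannot be told apart.

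In GRCm38.p6 coordinates from RefSeq, Col3a1 spans chr1:45311538-45349706, Col1a2 chr6:4505618-4541543 and Col1a1 chr11:94936224-94953042. Col4a1, at chr8:11198423-11312889, and Col4a2, at chr8:11312805-11449287, lie head to head on opposite strands, and their listed start sites are 21 bases apart. The 2 windows of 250 bases upstream of the start that follow are those of Col1a2 and Col3a1, the fibrillar genes with a promoter in the RefSeq table used, and they are shown because the letters and base composition of the 2 windows differ. Capitals mark the letters of the motifs described after them.
Col1a2, chr6:4505368-4505617, plus strand: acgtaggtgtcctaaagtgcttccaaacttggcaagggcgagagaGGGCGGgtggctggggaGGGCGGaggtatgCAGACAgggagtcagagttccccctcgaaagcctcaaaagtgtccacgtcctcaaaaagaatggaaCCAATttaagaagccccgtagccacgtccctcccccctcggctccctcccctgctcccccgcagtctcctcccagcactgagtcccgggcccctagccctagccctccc
Col3a1, chr1:45311288-45311537, plus strand: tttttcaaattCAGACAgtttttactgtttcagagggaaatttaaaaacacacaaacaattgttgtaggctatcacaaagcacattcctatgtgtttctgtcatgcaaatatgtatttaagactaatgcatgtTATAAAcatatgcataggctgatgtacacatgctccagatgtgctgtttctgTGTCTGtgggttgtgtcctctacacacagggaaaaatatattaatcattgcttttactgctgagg

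The Col1a2 window had a GC content of 62% and the Col3a1 window 35.2%. Motifs were searched on both strands, and none of the hits overlapped another. The Col1a2 window held CCAAT at 109 to 105 bases upstream of the start, the core letters of a CCAAT box. It also held GGGCGG, a GC box bound by Sp1-type factors, at 205 to 200 and at 188 to 183. The Col3a1 window held TATAAA, the letters of a TATA box, at 117 to 112. CAGACA, the letters of a SMAD-binding element of TGF beta signalling, lay in the Col1a2 window at 175 to 170. In the Col3a1 window the same letters lay at 239 to 234 and, on the opposite strand, at 65 to 60. For comparison, of 32851 windows of the same length 12.4% held the TATA box letters, 33.8% the CCAAT box, 32.7% the GC box and 17.1% the SMAD element. The Col4a1 and Col4a2 windows had GC contents of 74.4% and 73.6%, and each lies within the span of the other gene, so they are described but not printed. Col4a2 held a CCAAT box at 32 to 28, with GC boxes at 192 to 187 and, on the opposite strand, at 48 to 43. Col4a1 held a CCAAT box on the opposite strand at 145 to 141.

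In TgSREBP-1a livers, set against wild type on the same diet, 3 of the 5 collagens rose: Col1a1, Col3a1 and Col4a1. Rose here means an adjusted p under 0.05 in limma with Benjamini-Hochberg adjustment over all genes. Over all genes 9.82% passed upward, and 16.6% passed in either direction. Called genes had in addition at least a 1.5-fold difference. Of the 5 members, only Col4a1 was called, where 4.78% of all genes were called upward. The median log2 difference was 0.40 over the members and -0.03 over all genes. All levels that follow are log2 signals, and n = 2 arrays per group.

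Col4a1 encodes the alpha1 chain of type IV collagen. Its signal was 7.52 and 7.41 on the TgSREBP-1a arrays, against 6.62 and 6.89 in the high-protein wild type. Both transgenic arrays lay above both wild type arrays. The log2 difference was 0.71 ± 0.12 (SE), a 1.64-fold higher level, with a limma adjusted p of 0.00183. Without wild type replicate 1 the difference was 0.58, which is under 1.5-fold, with an adjusted p of 0.0164.

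Col4a2 encodes the alpha2 chain that joins the alpha1 chain in the type IV helix. It had 8.09 and 8.06 in TgSREBP-1a against 7.85 and 7.93 in wild type. The groups did not overlap, but the difference of 0.18 ± 0.08 did not pass, with a limma adjusted p of 0.144. Within each array, the Col4a1 signal minus the Col4a2 signal was -0.57 and -0.65 in TgSREBP-1a and -1.24 and -1.05 in wild type. This gap, whose own size has no meaning across probe sets, was 0.53 higher in TgSREBP-1a. An exact two-sided permutation test gave p = 0.333, the smallest that 2 arrays against 2 allow.

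Col1a1 encodes the more abundant chain of type I collagen and has 2 probe sets, which both rose but by unequal amounts. The brighter one, 103709_at, had 8.13 and 7.97 in TgSREBP-1a against 7.57 and 7.73 in wild type. No arrays overlapped, and the difference was 0.40 ± 0.10, or 1.32-fold, with a limma adjusted p of 0.0232. It no longer passed without TgSREBP-1a replicate 1 (0.33, adjusted p 0.132) or without wild type replicate 1 (0.33, adjusted p 0.133). It also missed the threshold when only the 3 pools of the transgenic set were fitted (adjusted p 0.0656).

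The other Col1a1 probe set, 94305_at, had 6.86 and 6.91 in TgSREBP-1a against 6.12 and 6.05 in wild type. In a fit of every probe set as a feature of its own, added after the values were seen, it rose by 0.80 ± 0.08, or 1.74-fold, with a limma adjusted p of 5.38e-05. Leaving out each array in turn gave 0.77 to 0.83, and no adjusted p was above 7.12e-04. In that fit 5 of the 9 collagen probe sets rose, and 8.41% of all probe sets passed upward. Of the 9, 2 were called, against 6.51% of all probe sets.

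Col1a2 encodes the second chain of type I collagen, and its 2 probe sets disagreed. The brighter, 161156_r_at, had 8.22 and 8.35 in TgSREBP-1a against 8.45 and 8.31 in wild type. The arrays overlapped, and the difference was -0.10 ± 0.11 with a limma adjusted p of 0.626. In Affymetrix naming, the r in its suffix marks probes picked under relaxed rules. The other, 101130_at, had 7.11 and 7.26 in TgSREBP-1a against 6.72 and 6.81 in wild type. It rose by 0.42 ± 0.08, or 1.34-fold, with an adjusted p of 0.00632 in the fit of all probe sets. Leaving out each array in turn gave 0.35 to 0.49, with adjusted p up to 0.0432. Thus the direction for Col1a2 hangs on the probe set, and which one reports the transcript better was not tested.

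Col3a1 encodes the only chain of type III collagen, the fine reticular fibre of liver, and has 3 probe sets. The brightest, 98331_at, had 8.55 and 9.0 in TgSREBP-1a against 8.15 and 8.30 in wild type. The TgSREBP-1a arrays were both higher but lay 0.45 apart, more than the duplicates of any other pool for this probe set. The difference was 0.55 ± 0.14, or 1.46-fold, with a limma adjusted p of 0.0211. Without TgSREBP-1a replicate 2 it was 0.32 with an adjusted p of 0.105, and without wild type replicate 1 it was 0.48 with an adjusted p of 0.113. Among the transgenic set's own pools the adjusted p was 0.0576.

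The 2 other Col3a1 probe sets were dim, at percentiles 10.2 and 5.4 of brightness among all probe sets. The first, 161984_f_at, differed by 0.30 ± 0.10 (adjusted p 0.0749 with limma, and 0.0114 with the replicate number as a block within each set). For the second, 102990_at, the difference was 0.24 ± 0.10 with an adjusted p of 0.162. Both had higher signals on each TgSREBP-1a array than on each wild type array, by less than the brightest set showed.

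**Figure D1:**
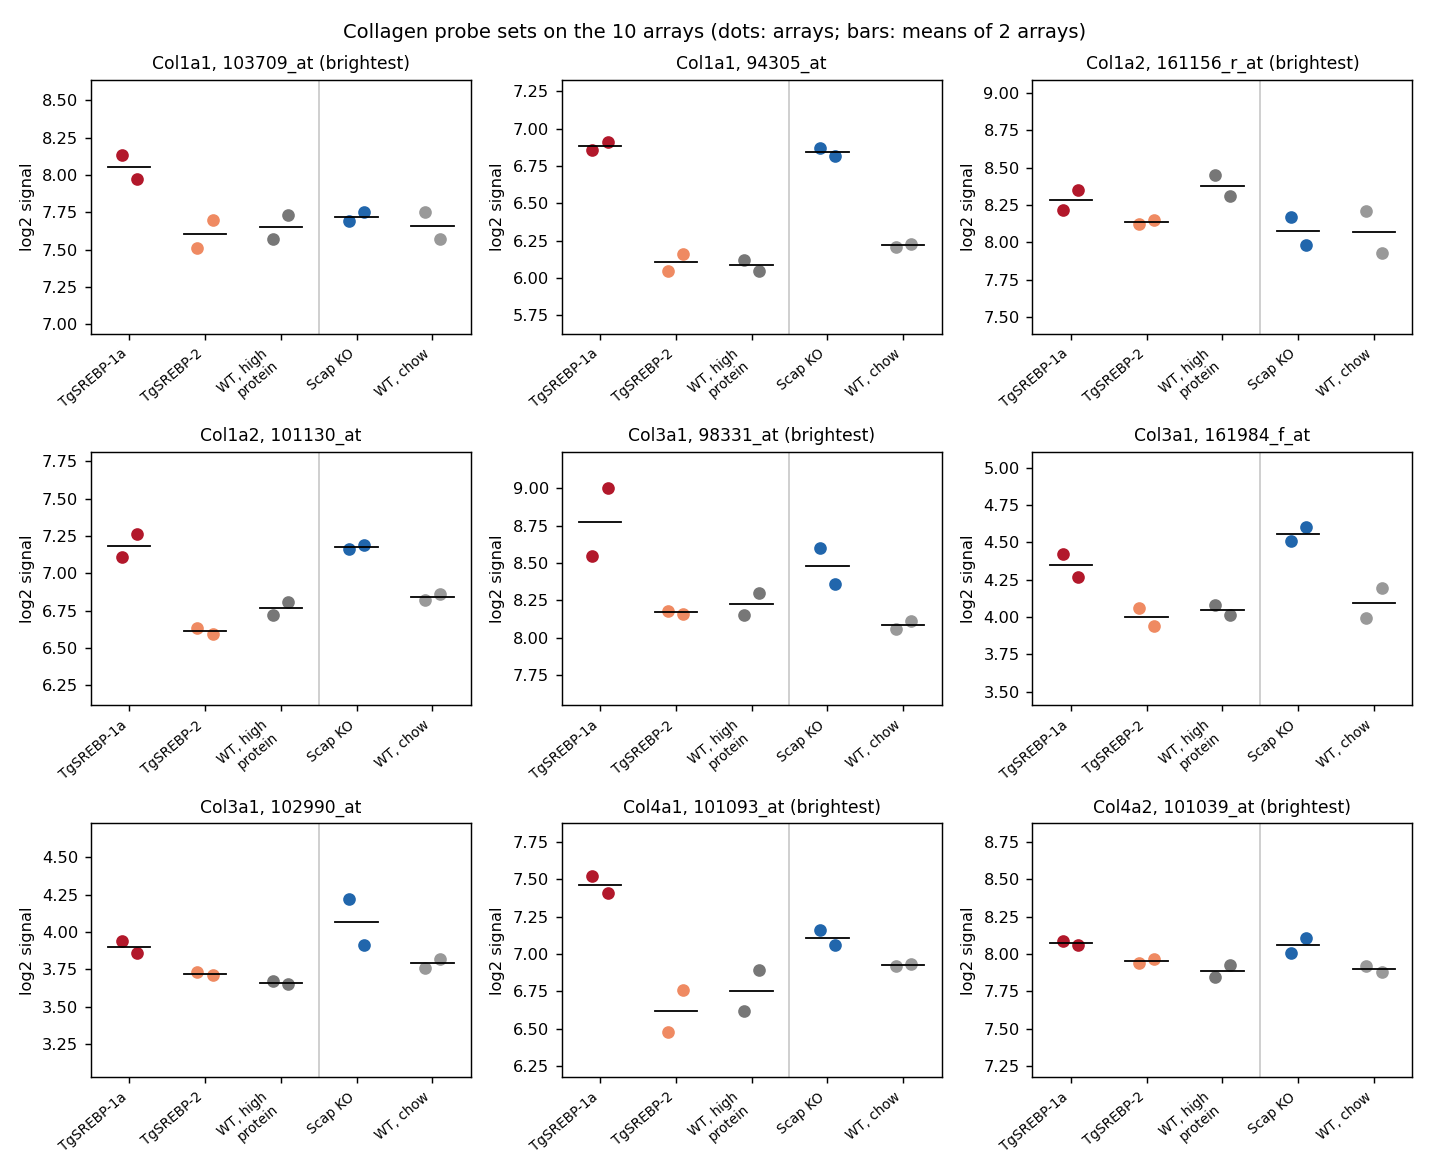
Log2 signal (vertical axis, a separate range in each panel with the same span) of the 9 collagen probe sets on the 10 arrays. Dots are arrays and bars are means of 2 arrays per pool; TgSREBP-1a dots lie above those of its wild type in 8 of the 9 panels, the exception being Col1a2 161156_r_at, where 21.9% of all probe sets separate this way.

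TgSREBP-2 livers showed no such change. None of the 5 members passed against wild type on the same diet in limma, where 5.05% of all genes passed. None had an unadjusted p under 0.05, where 17.1% of all genes did. The differences ran from -0.25 to 0.06, with a median of -0.06 over the members and -0.02 over all genes. Col1a2 161156_r_at, at 8.12 and 8.15 in TgSREBP-2 against 8.45 and 8.31 in wild type, had the lowest, -0.25 ± 0.11 with a limma adjusted p of 0.295. Col4a1 had 6.48 and 6.76 in TgSREBP-2 against 6.62 and 6.89 in wild type, a difference of -0.13 ± 0.12. Its arrays overlapped. In the fit of all probe sets none of the 9 passed either, at a background of 3.94%, and Col1a1 94305_at differed by 0.02 ± 0.08 with an adjusted p of 0.945.

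Set directly against TgSREBP-2, TgSREBP-1a had higher signals for all 5 members. The TgSREBP-1a arrays are those of the comparison with wild type, so these values are no second measurement of them. Passing upward were Col1a1, Col3a1 and Col4a1, 3 of 5, where 5.2% of all genes did. Of these, Col3a1 and Col4a1 were called, where 2.24% of all genes were called upward. Col4a1 was 0.84 ± 0.12 higher, or 1.79-fold, with an adjusted p of 7.81e-04 in limma. Col3a1 98331_at, at 8.55 and 9.0 in TgSREBP-1a against 8.18 and 8.16 in TgSREBP-2, was 0.60 ± 0.14 higher with an adjusted p of 0.0166. It no longer passed without TgSREBP-1a replicate 2 (0.38, adjusted p 0.0885), without TgSREBP-2 replicate 1 (0.61, adjusted p 0.0786), without TgSREBP-2 replicate 2 (0.60, adjusted p 0.0771), or within the transgenic set (adjusted p 0.0533).

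Col1a1 103709_at was 0.45 ± 0.10 higher in TgSREBP-1a than in TgSREBP-2, with an adjusted p of 0.0183 in limma. This pass was lost without TgSREBP-1a replicate 1 (0.37, adjusted p 0.103), without TgSREBP-2 replicate 1 (0.35, adjusted p 0.147) and within the transgenic set (adjusted p 0.0591). In the fit of all probe sets, Col1a1 94305_at had 6.86 and 6.91 in TgSREBP-1a against 6.05 and 6.16 in TgSREBP-2, a difference of 0.78 ± 0.08 with an adjusted p of 8.61e-05. Col1a2 101130_at had 7.11 and 7.26 in TgSREBP-1a against 6.63 and 6.59 in TgSREBP-2, a difference of 0.57 ± 0.08 with an adjusted p of 0.00111. Neither of these passes was lost when any 1 array was left out. Col1a2 161156_r_at and Col4a2 differed by 0.15 ± 0.11 and 0.12 ± 0.08, and neither passed. Col3a1 161984_f_at differed by 0.34 with an adjusted p of 0.0595, and of 0.00695 with the replicate block within each set. In that fit, counts were 5 of 9 probe sets higher, where 4.44% of all probe sets passed upward.

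In Scap knockout livers, where SREBP activation is lost, few collagen signals passed against the chow-fed control. For the 5 represented by their brightest probe set, limma passed 0, where 2.84% of all genes passed, and 1 had an unadjusted p under 0.05, where 9.78% of all genes did. All 5 differences were positive, from 0.01 to 0.39, with a median of 0.16 against 0.00 over all genes. Col3a1 98331_at had 8.60 and 8.36 in Scap knockout against 8.06 and 8.11 in the chow-fed control. The arrays did not overlap, yet the difference of 0.39 ± 0.14 had an adjusted p of 0.28. Within the Scap set alone, whose duplicates were closer, the adjusted p was 0.014.

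Col1a1 94305_at gave the clearest difference in this pair of pools. It had 6.87 and 6.82 in Scap knockout against 6.21 and 6.23 in the chow-fed control. In the fit of all probe sets it rose by 0.62 ± 0.08, or 1.54-fold, with a limma adjusted p of 0.00134. Leaving out each array gave 0.60 to 0.65 with adjusted p from 0.00189 to 0.0261. The brighter Col1a1 probe set, 103709_at, had 7.69 and 7.75 in Scap knockout against 7.75 and 7.57 in the chow-fed control. These arrays overlapped, and the difference was 0.06 ± 0.10 with an adjusted p of 0.993.

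The gap between the 2 Col1a1 probe sets within an array was -0.82 and -0.92 in Scap knockout and -1.53 and -1.34 in the chow-fed control, so 94305_at stood 0.56 closer to 103709_at in the knockout (exact permutation p = 0.333, the smallest possible). For Col1a2 the gap of 101130_at to 161156_r_at was -1.01 and -0.79 in Scap knockout and -1.39 and -1.06 in the chow-fed control, a shift of 0.33 with the same exact p = 0.333. In TgSREBP-1a against its own wild type these shifts were 0.39 and 0.52.

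Col1a2 101130_at had 7.16 and 7.19 in Scap knockout against 6.82 and 6.86 in the chow-fed control. Its difference of 0.33 ± 0.08 had an adjusted p of 0.0795 in the limma fit of all probe sets. With the replicate number as a block within each set the adjusted p was 0.0262, and within the Scap set alone it was 0.0197. Col3a1 161984_f_at had 4.51 and 4.60 in Scap knockout against 3.99 and 4.19 in the chow-fed control and rose by 0.46 ± 0.10, with an adjusted p of 0.0369. That pass was lost without any 1 of the 4 arrays, with adjusted p from 0.0736 to 0.406. In all, 2 of the 9 probe sets rose, where 1.17% of all probe sets passed upward. Only 94305_at was called, at a background of 1.54%. Both Scap knockout arrays lay above both chow-fed control arrays for 7 of the 9, where 21.7% of all probe sets separated this way.

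Type IV collagen did not pass in Scap knockout. Col4a1 had 7.16 and 7.06 in Scap knockout against 6.92 and 6.93 in the chow-fed control, a difference of 0.18 ± 0.12 with a limma adjusted p of 0.774. Col4a2 had 8.01 and 8.11 in Scap knockout against 7.92 and 7.88 in the chow-fed control, a difference of 0.16 ± 0.08 with an adjusted p of 0.571. Neither pair of pools overlapped. The gap of Col4a1 to Col4a2 was -0.86 and -1.05 in Scap knockout and -1.0 and -0.95 in the chow-fed control, a shift of 0.02 (exact permutation p = 1.0).

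**Figure D2:**
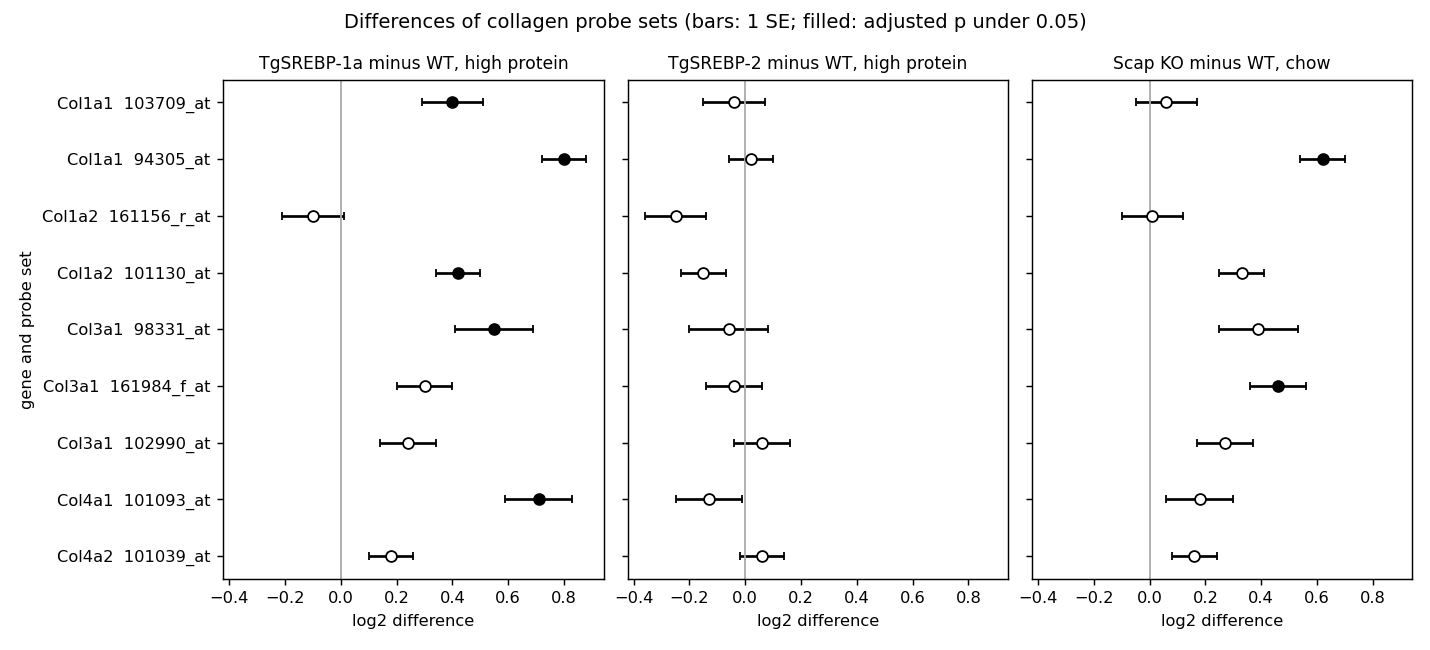
Log2 differences (horizontal axis) of the 9 collagen probe sets in 3 comparisons, with bars of 1 SE and filled points for an adjusted p under 0.05 in the limma fit of all probe sets. TgSREBP-1a has 5 filled points, TgSREBP-2 none and Scap knockout 2.

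Whether the effects themselves differed was tested with interaction terms, each over all genes, with pools that also differ in diet, age and injections. The Scap knockout effect minus the TgSREBP-1a effect passed in limma for 0 of the 5 members, where 9.9% of all genes passed, and 2 had an unadjusted p under 0.05, where 21.9% of all genes did. For Col4a1 this term was -0.53 ± 0.16 with an adjusted p of 0.0765. It passed with the replicate number as a block within each set (adjusted p 0.0184) and without high-protein wild type replicate 2 (-0.67, adjusted p 0.0344). For Col1a1 103709_at it was -0.34 ± 0.15 with an adjusted p of 0.206, and for 94305_at -0.18 ± 0.11 with an adjusted p of 0.436 in the fit of all probe sets.

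The Scap knockout effect minus the TgSREBP-2 effect passed for 0 of the 5 members in limma, where 4.38% of all genes passed, and 1 had an unadjusted p under 0.05, where 15.2% of all genes did. In the fit of all probe sets Col1a1 94305_at passed, at 0.60 ± 0.11 with an adjusted p of 0.0118, where 3.61% of probe sets did. It was lost without TgSREBP-2 replicate 1, Scap knockout replicate 1, or either chow-fed control array, with adjusted p from 0.0609 to 0.0715. Col1a2 101130_at had 0.49 ± 0.12 with an adjusted p of 0.0501, and 0.0147 with the replicate block within each set. Col3a1 161984_f_at, at 0.51, passed with that block (adjusted p 0.00938).

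Wild type on the high-protein diet was set against the chow-fed control to see how the controls stood. These pools differ in diet, age and injections at once, so the factors cannot be told apart. None of the 5 members passed in limma, where 22.7% of all genes passed, and 1 had an unadjusted p under 0.05, where 37.2% of all genes did. Col1a2 161156_r_at had 8.45 and 8.31 on the high-protein diet against 8.21 and 7.93 on chow, a difference of 0.31 ± 0.11 with an adjusted p of 0.0693. It passed with the replicate block within each set (adjusted p 0.00962) and after a further quantile normalization (0.41, adjusted p 0.0346), while 101130_at differed by -0.08 ± 0.08. The other 4 members had differences of -0.17 to 0.14.

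Over the 5 pools, the mean signal was highest in TgSREBP-1a for 6 of the 9 probe sets, with Scap knockout second in each of these. Col1a1 94305_at averaged 6.89 ± 0.04 (SD, n = 2) in TgSREBP-1a and 6.85 ± 0.03 in Scap knockout. It averaged 6.10 ± 0.08 in TgSREBP-2, 6.09 ± 0.05 in the high-protein wild type and 6.22 ± 0.01 in the chow-fed control. The first pair of pools lay within the spread of each other, and both stood well apart from the remaining 3. Col1a2 101130_at showed the same order at the top, with 7.18 ± 0.10 in TgSREBP-1a, 7.17 ± 0.03 in Scap knockout, 6.61 ± 0.03 in TgSREBP-2, 6.76 ± 0.06 in the high-protein wild type and 6.84 ± 0.03 in the chow-fed control. Col4a1 had steps between all of its upper pools, at 7.46 ± 0.08 in TgSREBP-1a, 7.11 ± 0.07 in Scap knockout and 6.92 ± 0.01 in the chow-fed control. Its lower neighbours, 6.62 ± 0.20 in TgSREBP-2 and 6.75 ± 0.19 in the high-protein wild type, overlapped.

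For the remaining probe sets, Scap knockout was highest for the dim Col3a1 sets, at 4.56 ± 0.07 for 161984_f_at and 4.06 ± 0.22 for 102990_at. Wild type on the high-protein diet was highest for Col1a2 161156_r_at, at 8.38 ± 0.09. The widest range of pool means was that of Col4a1, 1.79-fold, and the narrowest that of its partner Col4a2, 1.13-fold. Col1a1 94305_at spanned 1.74-fold and Col3a1 98331_at 1.61-fold.

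Other genes of collagen biology were followed through lists written with earlier results of these data known. Counts are of genes that passed in limma over all genes, and differences are log2. In TgSREBP-1a against wild type, 4 of 18 genes of the fibril-associated matrix rose and 1 fell, with a median difference of 0.01. Over all genes 9.82% passed upward and 6.74% downward, against which this and the other list and marker counts for TgSREBP-1a are to be read. Postn, periostin, a matrix protein that binds collagen fibrils, had 6.3 and 5.88 in TgSREBP-1a against 4.87 and 4.67 in wild type and rose by 1.32 ± 0.14 (adjusted p 8.31e-05). Sparc, a collagen-binding glycoprotein, had 6.47 and 6.07 in TgSREBP-1a against 5.57 and 5.35 in wild type and rose by 0.81 ± 0.15 (adjusted p 0.00416). The decorin gene Dcn rose by 0.45 ± 0.13 with an adjusted p of 0.0435, a pass lost in 7 of the 10 fits that left out 1 array, where it ranged from 0.26 to 0.63. Fn1, fibronectin, which hepatocytes also secrete, fell by 0.41 on the log2 scale (SE 0.09, adjusted p 0.0107), with an adjusted p of at most 0.068 and no pass when TgSREBP-1a replicate 1 or high-protein wild type replicate 2 was left out.

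Among 16 partners of basement membrane collagen, Smoc2 and Smoc1 rose and Lama3 fell in TgSREBP-1a, with a list median of -0.02. Smoc2, a SPARC-related matricellular protein, had 7.26 and 7.14 in TgSREBP-1a against 5.31 and 5.63 in wild type and rose by 1.73 ± 0.11, or 3.32-fold, with a limma adjusted p of 1.41e-06. Lama3, a laminin chain, fell by 0.53 on the log2 scale (SE 0.08). Of 13 collagen processing genes, Colgalt1, which adds galactose to collagen hydroxylysines, rose by 0.86 ± 0.12 (adjusted p 6.48e-04). Ppib, cyclophilin B of the collagen-modifying complex, fell by 0.68 on the log2 scale (SE 0.09, adjusted p 3.88e-04). Colgalt1 also rose in TgSREBP-2, by 0.91 ± 0.12 (adjusted p 0.00146), where the collagens did not. Its signal was 6.77 and 6.53 in the high-protein wild type, against 7.15 and 7.11 in the chow-fed control.

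TGF beta and PDGF signalling, the main growth factor inputs to stellate cells, had 7 of 23 genes higher and 0 lower in TgSREBP-1a in limma, where 9.82% and 6.74% of all genes were, with a median of 0.05 and 9 at an unadjusted p under 0.05. Ccn2, connective tissue growth factor and a TGF beta target, had 5.94 and 5.72 in TgSREBP-1a against 4.69 and 4.61 in wild type and rose by 1.18 ± 0.11 (adjusted p 3.89e-05). Smaller rises were those of the signal transducers Smad2, by 0.54 ± 0.15, and Smad4, by 0.48 ± 0.12. Tgif1, a repressor of TGF beta target genes, rose by 0.51 ± 0.11 (adjusted p 0.00827), a pass lost without TgSREBP-1a replicate 1 or high-protein wild type replicate 1. With 1 array left out the rise ranged from 0.31 to 0.77 for Smad2 and from 0.32 to 0.64 for Smad4. The Smad2 and Smad4 passes were lost without TgSREBP-1a replicate 1 and without high-protein wild type replicate 2, and that of Smad2 also without either chow-fed control array. Timp3, an inhibitor of matrix proteases, was the only one of 13 turnover genes to pass, at 0.51 ± 0.13 with an adjusted p of 0.0196, and it ranged from 0.29 to 0.73 in left-out fits. That pass was lost without TgSREBP-1a replicate 1 or either high-protein wild type array. Itgb1, the beta chain of collagen-binding integrins, was the only one of 5 receptors to pass, at 0.65 ± 0.17. It ranged from 0.40 to 0.90 in left-out fits, with no pass without TgSREBP-1a replicate 1 (0.40) or high-protein wild type replicate 2 (0.54), and its second probe set differed by 0.14 with an adjusted p of 0.495. Of 26 other collagen genes, Col6a3 rose by 0.29 ± 0.08, a pass lost without either TgSREBP-1a array or without high-protein wild type replicate 2. Col18a1 fell by 0.45 on the log2 scale (SE 0.08), and its 4 other probe sets, at -0.31 to -0.12, did not pass.

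In TgSREBP-2 against wild type, the matrix lists held 2 passing genes, Colgalt1 and Smad2 (0.82 ± 0.15, adjusted p 0.00862). Smad2 lost its pass without TgSREBP-2 replicate 1 (0.72 with an adjusted p of 0.0923). For the fibril-associated list limma passed 0 of 18, where 5.05% of all genes passed. In that list 1 gene had an unadjusted p under 0.05, where 17.1% of all genes did. Directly against TgSREBP-2, TgSREBP-1a was higher for Smoc2 by 1.69 ± 0.11, Ccn2 by 1.14 ± 0.11, Postn by 0.87 ± 0.14 and Sparc by 0.81 ± 0.15. Ppib went the other way, at -0.76 ± 0.09 (limma adjusted p 2.30e-04), as did Col18a1, at -0.35 ± 0.08 (adjusted p 0.0178). The Col18a1 pass was lost without either TgSREBP-1a array or TgSREBP-2 replicate 1, and its other probe sets did not pass. Pdgfa, a PDGF ligand gene, was higher by 0.48 ± 0.08 (limma adjusted p 0.00196). Tgfb1, the main pro-fibrotic TGF beta ligand, was higher by 0.36 ± 0.08 with an adjusted p of 0.0133 in limma, a pass lost without TgSREBP-1a replicate 2 or TgSREBP-2 replicate 2 (adjusted p up to 0.0938). Bgn, biglycan, was higher by 0.41 ± 0.08, a pass lost without TgSREBP-2 replicate 2 (adjusted p 0.0757), and its second probe set by 0.25 with an adjusted p of 0.076.

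In Scap knockout, few matrix genes passed. Of the fibril-associated list, Bgn had 9.73 and 9.81 in Scap knockout against 9.26 and 9.41 in the chow-fed control and rose by 0.43 ± 0.08 (limma adjusted p 0.0208), while its second probe set differed by 0.02. Sparc had 6.22 and 6.19 in Scap knockout against 5.73 and 5.85 in the chow-fed control, which did not pass. The collagenase gene Mmp13 rose by 0.70 ± 0.13 (adjusted p 0.0152), and Col6a3, a type VI collagen chain, by 0.36 ± 0.08 (adjusted p 0.0308). The Mmp13 signals were dim, at 4.75 and 4.72 in Scap knockout against 3.95 and 4.12 in the chow-fed control. Col18a1 fell by 0.41 on the log2 scale (SE 0.08, adjusted p 0.0224). Among the basement membrane partners only Lama3 passed, falling by 0.35 (SE 0.08, adjusted p 0.0423). Each of the passes of Bgn, Mmp13, Col6a3, Col18a1 and Lama3 was lost without any 1 of the 4 arrays of the Scap set. That of Lama3 was also lost without any 1 array of TgSREBP-2 or the high-protein wild type. Limma passed 0 of 13 processing genes and 0 of 23 TGF beta and PDGF genes, where 2.84% of all genes passed. In these lists 0 and 4 genes had an unadjusted p under 0.05, where 9.78% of all genes did.

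The Scap knockout effect was lower than the TgSREBP-1a effect for Smoc2 (-1.48 ± 0.15, adjusted p 1.04e-04), Postn (-1.19 ± 0.20, adjusted p 0.00284) and Ccn2 (-0.89 ± 0.16, adjusted p 0.00506) by the limma interaction term. By the same limma term it was lower for Colgalt1 (-0.93 ± 0.17, adjusted p 0.00562) and Smad2 (-0.74 ± 0.21, adjusted p 0.0485). For Ppib it was higher (0.78 ± 0.13, adjusted p 0.00245). Between the wild type pools, high-protein minus chow, matrix genes passed in both directions, as did 8.22% of all genes upward and 14.4% downward. Higher on the high-protein diet were Col11a2, a fibrillar type XI chain, by 0.57, Smoc1 by 0.41, Col4a5, a type IV chain, by 0.39, and Mmp14, a membrane-bound protease, by 0.35. The pass of Smoc1 was lost without chow-fed control replicate 1, those of Col11a2 and Mmp14 without chow-fed control replicate 2, and that of Col4a5 without high-protein wild type replicate 1 or either chow-fed control array. Lower were Ppib, at -0.67 ± 0.09, and Col15a1, at -0.62 ± 0.09. So were the genes of these lists that rose in TgSREBP-2. Smad2 was at -0.62 ± 0.15 (limma adjusted p 0.0146) and Colgalt1 at -0.48 ± 0.12 (adjusted p 0.0202). Both of these passes were lost without high-protein wild type replicate 2 or either chow-fed control array. The lists also held Serpinh1, the collagen chaperone HSP47, at -0.36 ± 0.10 (adjusted p 0.0296), a pass lost without either high-protein wild type array or chow-fed control replicate 2 (adjusted p up to 0.246).

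**Figure D3:**
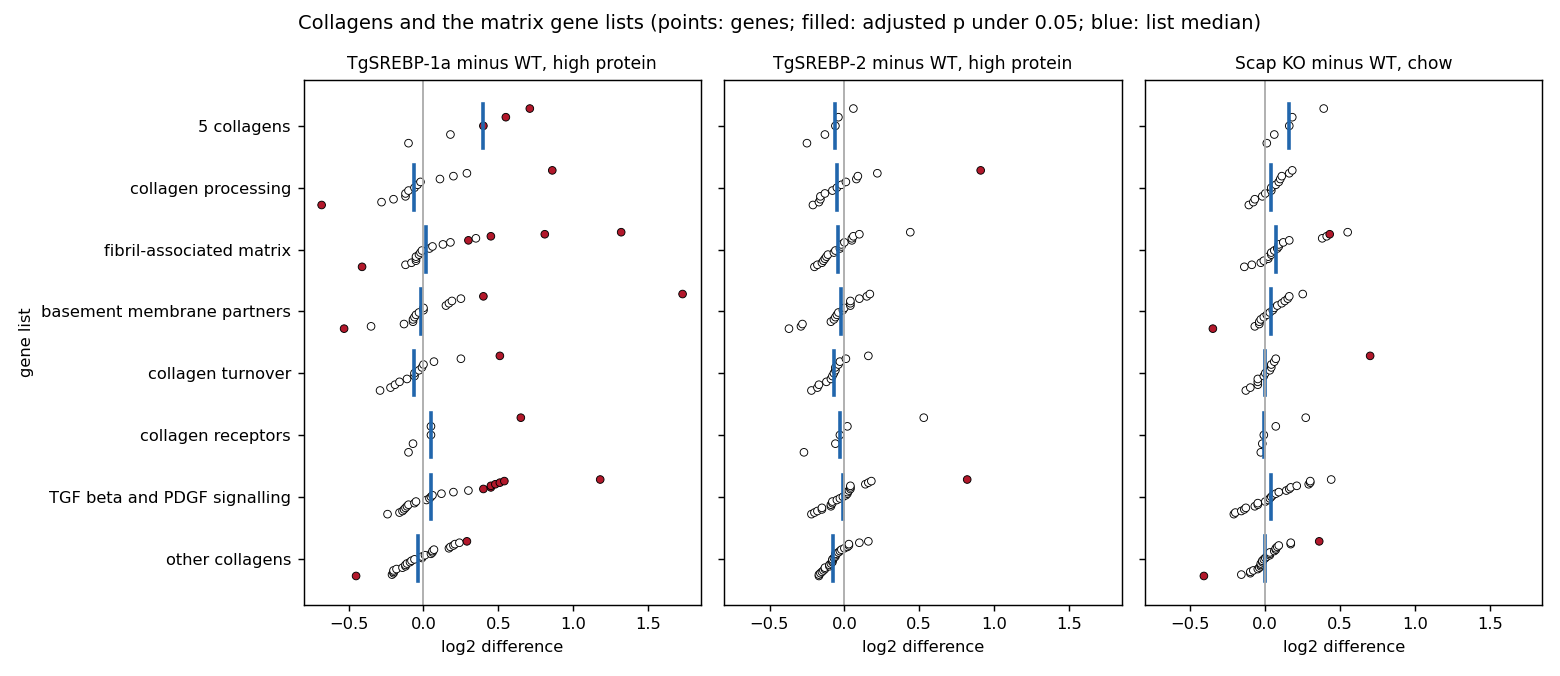
Log2 differences (horizontal axis) of the 5 collagens and of the genes of 7 lists (rows) in 3 comparisons; each point is a gene, filled points have a limma adjusted p under 0.05 and the blue line is the list median. In TgSREBP-1a the collagen median is 0.40 while the list medians run from -0.06 to 0.05; the points farthest to the right are Smoc2, Postn and Ccn2.

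Markers of stellate cells and fibroblasts did not move as a block. Of 15 stellate and fibroblast markers, 1 rose and 4 fell in TgSREBP-1a, with a median of -0.12 and with limma as the test. Acta2, smooth muscle actin and the usual sign of stellate activation, had 5.17 and 5.11 in TgSREBP-1a against 5.44 and 5.89 in wild type and fell by 0.52 on the log2 scale (SE 0.13, adjusted p 0.0178). This pass was lost in 3 fits that left out 1 array, with adjusted p up to 0.0764. Cxcl12, a chemokine of stromal cells, fell by 1.16 on the log2 scale (SE 0.13). Des, desmin, fell by 0.36 (SE 0.09), a pass lost without TgSREBP-1a replicate 1 or wild type replicate 1. The marker that rose is Dcn, which the matrix list also holds.

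The summed linear signal of the 15 stellate and fibroblast markers was 2351 to 2545 in TgSREBP-1a, 2345 to 2413 in TgSREBP-2 and 2583 to 2599 in the high-protein wild type. In Scap knockout it was 2627 to 2679, against 2346 to 2359 in the chow-fed control. The sum was therefore lower in TgSREBP-1a and higher in Scap knockout than in the matched control. A linear sum is weighted to its brightest genes, here Dcn and Cxcl12. Cxcl12 had 7.97 and 7.63 in TgSREBP-1a against 9.09 and 8.83 in the high-protein wild type. Dcn had 9.7 and 9.87 in Scap knockout against 9.35 and 9.46 in the chow-fed control. Of the 15 markers, 5 had a positive difference in TgSREBP-1a and 11 in Scap knockout. Limma passed 0 of 15 in Scap knockout, where 2.84% of all genes passed. An unadjusted p under 0.05 was found for 5, where 9.78% of all genes had one. The part of this sum in the collagen differences was not tested.

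Endothelial markers, from cells that make type IV collagen, summed to 2161 to 2247 in TgSREBP-1a, 1756 to 1821 in TgSREBP-2 and 1870 to 1879 in the high-protein wild type. In limma 4 of 12 rose in TgSREBP-1a and 0 fell, where 9.82% of all genes rose, among them Lyve1 by 1.09 ± 0.17 and Cdh5 by 0.72 ± 0.12. Lyve1 had 5.5 and 5.28 in TgSREBP-1a against a dim 4.0 and 4.6 in the high-protein wild type. With 1 array left out its difference ranged from 0.79 to 1.39. Without TgSREBP-1a replicate 1 Cdh5 rose by 0.58, under 1.5-fold. In Scap knockout the sum was 2035 to 2049, against 2095 to 2240 in the chow-fed control. Limma passed 0 of 12, where 2.84% of all genes passed, and 0 had an unadjusted p under 0.05, where 9.78% did. The endothelial sum thus moved with Col4a1 in the transgenic set, and its part in that difference was not tested. This sum is weighted to its brightest gene, Eng, which rose by 0.30 ± 0.08 in TgSREBP-1a (limma adjusted p 0.0216). The Eng pass was lost without any 1 of the TgSREBP-1a or high-protein wild type arrays. Stab1 rose by 0.42 ± 0.09, a pass lost without TgSREBP-1a replicate 1 or high-protein wild type replicate 1.

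Macrophage markers summed to 4909 to 5231 in TgSREBP-1a, 4012 to 4333 in TgSREBP-2 and 3188 to 3250 in the high-protein wild type, with 8 of 11 passing upward in TgSREBP-1a and 5 of 11 in TgSREBP-2, where 9.82% and 4.04% of all genes did. In Scap knockout the sum was 4373 to 4412, against 4381 to 4598 in the chow-fed control. In the high-protein wild type, 10 of these 11 markers passed lower than in the chow-fed control in limma, and 1 passed higher. Over all genes 14.4% passed lower and 8.22% higher between these wild types. Exocrine pancreas markers can come from pancreas tissue taken along with the liver, a source that was not tested here. They summed to 1771 to 1789 in TgSREBP-1a, 24246 to 24643 in TgSREBP-2 and 17810 to 18202 in the high-protein wild type. They were 2201 to 2363 in Scap knockout against 8787 to 8980 in the chow-fed control, and 8 of 9 fell in both TgSREBP-1a and Scap knockout, where 6.74% and 1.43% of all genes did. For 8 of the 9 collagen probe sets, TgSREBP-1a and Scap knockout had the highest pool means, where 7.29% of all probe sets did, and these pools also had the lowest pancreas sums. The part of this in the collagen differences was not tested. Hepatocyte markers summed to 57717 and 54505 in TgSREBP-1a, against 63482 and 61432 in the high-protein wild type. Of 10 such markers, limma passed 2 higher and 4 lower in TgSREBP-1a, where 9.82% and 6.74% of all genes did. Among them Ttr was at -1.37 ± 0.10, Serpina1c at -0.89 ± 0.07 and Tat at 0.77 ± 0.11. Their part in the collagen differences was not tested. Cholangiocyte sums of 152 to 183 and lymphocyte sums of 1027 to 1258 covered all arrays. Of 4 cholangiocyte markers, 0, 1 and 0 had an unadjusted p under 0.05 in TgSREBP-1a, TgSREBP-2 and Scap knockout. Limma passed 0 of 4 in each after adjustment, where 16.6%, 5.05% and 2.84% of all genes passed. Of 9 lymphocyte markers it passed, in these 3 comparisons, only Cd4, which fell in TgSREBP-1a by 0.32 on the log2 scale (adjusted p 0.0245), a pass lost without TgSREBP-1a replicate 1 or high-protein wild type replicate 1.

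**Figure D4:**
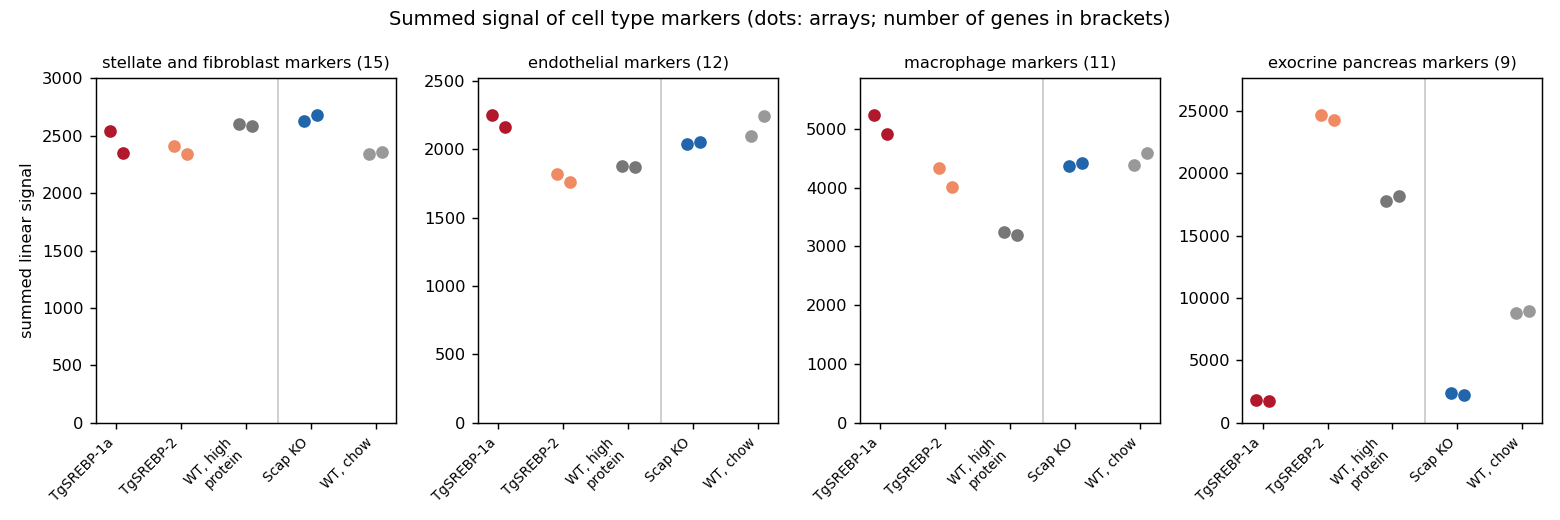
Summed linear signal (vertical axis, from 0) of 4 sets of cell type markers on each of the 10 arrays, shown as dots by pool, with the number of genes in brackets. Endothelial and macrophage sums are higher, and pancreas sums lower, in TgSREBP-1a than in the high-protein wild type.

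Genes whose pattern was most like the collagens were sought among 1434 genes whose pool means spanned at least 1.5-fold, by Pearson correlation over the 10 arrays, which stand for 5 pools. To the mean of the 3 fibrillar collagens, each by its brightest probe set, the nearest were Ank3 (r = 0.937), Pygm (0.922), Cidec (0.912), Ly6d (0.894) and Tcf4 (0.892). That mean thus holds Col1a1 103709_at and Col1a2 161156_r_at. A mean with 94305_at and 101130_at, which differed from these, was not searched. Ank3, an ankyrin of the membrane skeleton, averaged 7.48 in TgSREBP-1a, 6.69 in TgSREBP-2, 6.95 in the high-protein wild type, 6.93 in Scap knockout and 6.85 in the chow-fed control. To the mean of Col4a1 and Col4a2 the nearest were Ccnd1 (r = 0.965), Mmp12 (0.955), Atox1 (0.949), Tnfaip8 (0.934) and Anxa2 (0.934). Ccnd1, cyclin D1 of the cell cycle, averaged 8.48 in TgSREBP-1a, 6.30 in TgSREBP-2, 6.70 in the high-protein wild type, 7.89 in Scap knockout and 6.80 in the chow-fed control. These likenesses are descriptions of 5 pools and were not tested.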

How the data were processed

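The authors deposited log2 signals of 12488 probe sets. The submitters' processing notes name RMA, with no version in the sources used here, whereas the design text has Microarray Suite 5.0. The deposited log2 values ran from 2.68 to 14.03 with array medians of 6.37 to 6.4, so they were taken as normalized between arrays.

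Gene names came from the platform annotation and RefSeq gene IDs, where 10817 of 10833 matched. Left out were 66 controls, 396 probe sets with several symbols and 1193 with none. The fit used limma 3.58.1 (lmFit, eBayes; R 4.3.3) on all 10 arrays, with a coefficient for each of 5 groups, 5 residual degrees of freedom and 7 contrasts. P-values were Benjamini-Hochberg adjusted over 8251 genes, and a call needed an adjusted p under 0.05 and 1.5-fold. The script was tested on simulated data. Duplicates share 1 variance per gene although they differed more on the high-protein diet. Arrays with the same replicate number deviated together within the transgenic set (r = 0.46 to 0.61) and the Scap set (0.3). Between sets, arrays with the same number deviated in opposite directions (-0.12 to -0.48). No label explains the number. The p-values printed come from the fit without a block; fits with the number as a block were alternatives.

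Members and lists were chosen with earlier results of these data known. The genes named are all members with every probe set, up to 4 passing genes per list and contrast by size, and the 5 most alike in pattern. Sparc in Scap knockout was named after its values were seen. Alternatives covered probe set choice, normalization, dim genes, the variance prior, the samples fitted, the replicate block and leaving out each array.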

Additional observations from a re-analysis of the deposited data

Results flagged for a closer look

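Some collagen probe sets differed between the transgenic pools by a direct limma test, which, because both share 1 wild type pool, equals the difference between the pools themselves. The TgSREBP-1a effect exceeded the TgSREBP-2 effect on the log2 scale by 0.84 ± 0.12 for Col4a1 (adjusted p 7.81e-04), 0.60 ± 0.14 for Col3a1 98331_at (adjusted p 0.0166) and 0.45 ± 0.10 for Col1a1 103709_at (adjusted p 0.0183). With 1 array left out, the excess ranged from 0.38 to 0.83 for Col3a1 98331_at and from 0.35 to 0.54 for Col1a1 103709_at. Neither of these passed when limma was fitted to the transgenic set alone (adjusted p 0.0533 and 0.0591). In the fit of all probe sets the excess was 0.78 ± 0.08 for Col1a1 94305_at (adjusted p 8.61e-05) and 0.57 ± 0.08 for Col1a2 101130_at (adjusted p 0.00111). These are 5 of the 9 collagen probe sets, where 4.44% of all probe sets passed upward, and the other 4 differed by 0.12 to 0.34 and did not pass. The pools also differed in their exocrine pancreas sums, 1771 to 1789 in TgSREBP-1a against 24246 to 24643 in TgSREBP-2, and the part of this in the result was not tested.

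The Scap knockout effect exceeded the TgSREBP-2 effect for Col1a1 94305_at by 0.60 ± 0.11 (adjusted p 0.0118), across sets that differ in diet, age and injections. With 1 array left out this excess ranged from 0.55 to 0.66, and its pass was lost in some of these fits. The other Col1a1 probe set, 103709_at, gave 0.11 ± 0.15 with an adjusted p of 0.805.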

How the results depend on the processing

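The number of collagens called changed with the probe set that stood for a gene. In TgSREBP-1a against wild type it was 1, and 2 with the median of a gene's probe sets or with the second brightest set. For Scap knockout against the chow-fed control, and for the Scap knockout effect minus the TgSREBP-2 effect, it was 0, and 1 with the second brightest set. Between TgSREBP-1a and TgSREBP-2 it was 2, and 1 within the transgenic set alone. Leaving out 1 array at a time gave 0 to 2 calls in TgSREBP-1a against wild type (0 without high-protein wild type replicate 1), 1 to 2 between the transgenic pools and 0 to 1 for the Scap knockout effect minus the TgSREBP-1a effect (1 without high-protein wild type replicate 2). The counts for TgSREBP-2 against wild type and between the wild types were 0 under every alternative run. Col1a2 in TgSREBP-1a turned from -0.10 to 0.42 with the second brightest set (adjusted p 0.00569), without suffix-r or suffix-f sets (0.00467) and with 101130_at as its own feature (0.00632); the last pair of settings was added after seeing the data.

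The replicate block over all arrays left these calls at 1, 0, 2, 0, 0, 0 and 0 in the 7 contrasts, and so did the block within each set, which changed no call of a member; the passes it made are given beside their results. All genes called in TgSREBP-1a numbered 608, and 618 with the replicate block within each set. With 2 hybridisations of 1 pool per group, no alternative measures the spread between mice, and array number limits the precision. Log2 signals of the dim Col3a1 probe sets may understate folds.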
